A study of Mus musculus with 24 samples.

Results

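Transcript abundance in mouse peritoneal metastases was compared between 6 butyrate libraries and 6 propionate libraries, 12 of the 24 libraries of the series. The members were taken by treatment label: every library labelled with butyrate alone and every library labelled with propionate alone. The remaining libraries are 6 with both acids together and 6 controls. Those with both acids together entered the gene filters, the shared estimate of the spread, the alternative scalings and the tissue covariates, but no comparison. All 24 are peritoneum of the mouse, and the design text calls them peritoneal metastasis, tumour that has seeded the abdominal lining. Ovarian cancer, mannose, anti-PD-1 treatment and a metabolite of gut microbes are named in the title of the series. The labels state no strain, age, tumour line, dose, route or time point for any group. They also do not say what control samples received, or whether mannose or anti-PD-1 was given to any group. Whether the acids were given at matched doses and times can therefore not be checked. Nor do they say that each replicate is an animal of its own, so the p-values rest on a spread between samples that may be technical.

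Butyrate and propionate are short-chain fatty acids, products of fibre fermentation by gut bacteria, and butyrate is the longer by a single methylene group. Both are sensed by G protein-coupled receptors on immune, fat and epithelial cells and enter cells through monocarboxylate carriers. Inside the cell their routes part. Butyrate is activated to butyryl-CoA, oxidised by short-chain acyl-CoA dehydrogenase and can feed ketone body synthesis. Propionate is activated to propionyl-CoA, carboxylated and rearranged with the help of vitamin B12 to succinyl-CoA. Both acids inhibit zinc-dependent histone deacetylases, and butyrate is known as the stronger inhibitor.

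The tissue pieces differed within each group far more than between the acids. Wt1, a transcription factor of mesothelium and of many ovarian tumours, had 0.37, 166, 71.4, 17.2, 1.73 and 28.0 TPM in butyrate replicates 1 to 6. It had 1.07, 2.58, 336, 254, 1.27 and 21.3 TPM in propionate replicates 1 to 6, and 131, 368, 0.65, 217, 328 and 257 TPM in control replicates 1 to 6. TPM is transcript abundance per length, scaled to a fixed total per library, so it keeps no sequencing depth. Butyrate replicate 2 and propionate replicates 3 and 4 had the highest Wt1 of the 12 acid libraries and are called the Wt1-high libraries. Butyrate replicate 3 was next and was kept with the others. Among controls, 5 of 6 had at least 131 TPM of Wt1.

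Krt8, a keratin of simple epithelium and mesothelium, was highest in the same 3 acid libraries. It ranged from 0.30 to 110 TPM (median 15.4) with butyrate, from 0.64 to 243 TPM (median 6.63) with propionate and from 0.32 to 292 TPM (median 171) in control. Mki67, a marker of cycling cells, followed it, with 0.30 to 7.47 TPM (median 2.10) in butyrate libraries, 0.22 to 14.98 TPM (median 0.91) in propionate libraries and 0.88 to 22.5 TPM (median 8.75) in controls. All these ranges overlapped. The 16 skeletal muscle genes, markers of the body wall, had a mean log2(TPM + 1) of 11.3 to 11.9 with butyrate, 9.84 to 12.3 with propionate and 9.75 to 11.9 in control. Propionate replicates 3 and 4, with 9.84 and 10.6, were the lowest of the acid libraries. In such bulk samples, fewer cells of a type and less RNA per cell cannot be told apart.

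**Figure D1:**
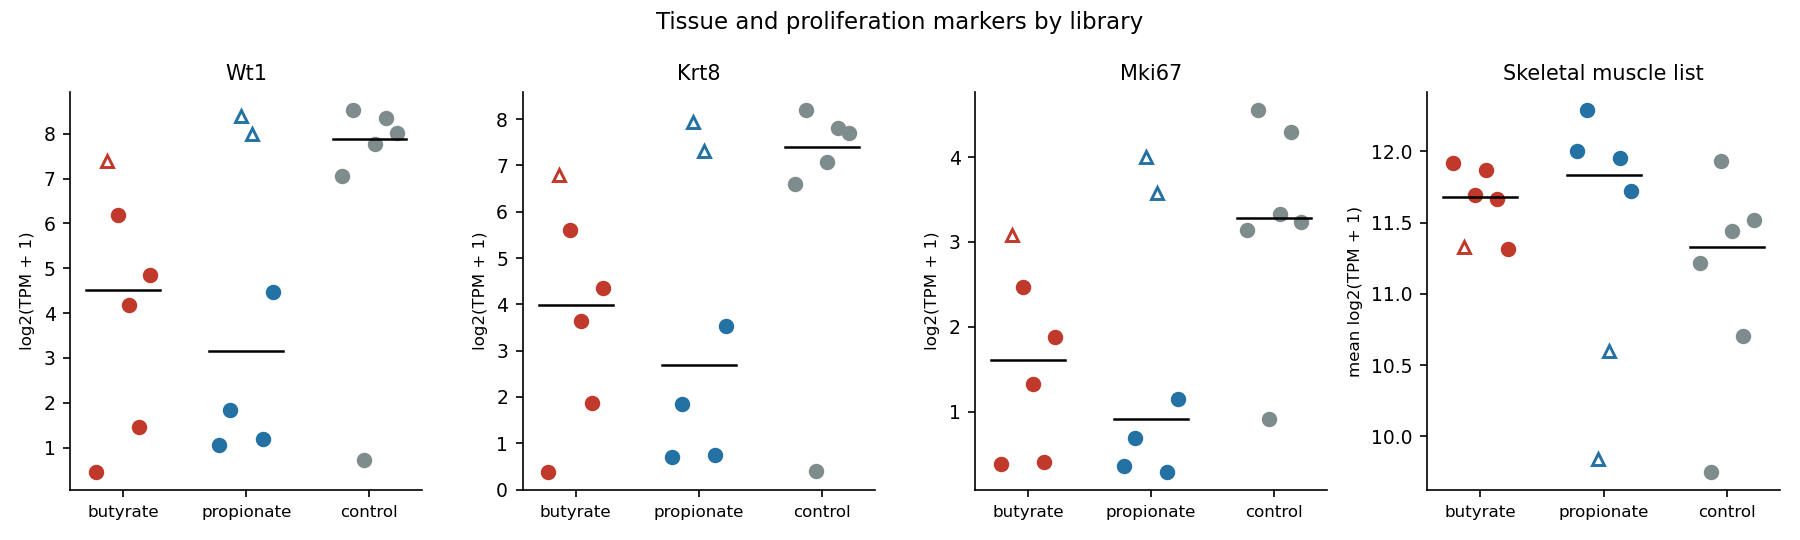
Wt1, Krt8 and Mki67 as log2(TPM + 1) and the mean log2(TPM + 1) of 16 skeletal muscle genes, 1 point per library in butyrate, propionate and control (6 each), with the median as a black line. Open triangles are butyrate replicate 2 and propionate replicates 3 and 4, which hold the highest Wt1 of the acid libraries (166, 336 and 254 TPM) and, for propionate, the lowest muscle scores (9.84 and 10.6).

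Mesothelium and carcinoma genes were highest in the same 3 acid libraries, while adipocyte genes did not follow that division. The mesothelium list holds Wt1 itself, by which those libraries were picked, so its part in this is partly built in. The summed level of the 8 mesothelium genes ran from 11.8 to 405 TPM with butyrate, 24.04 to 930 TPM with propionate and 12.4 to 1140 TPM in control. That of the 10 epithelial and ovarian carcinoma genes ran from 1.60 to 198 TPM with butyrate, 4.12 to 439 TPM with propionate and 2.10 to 518 TPM in control. Adipocyte genes summed to 911 to 3669 TPM with butyrate, 1111 to 2508 TPM with propionate and 758 to 2156 TPM in control. The pancreatic enzymes Prss1, Prss2, Cpa1, Cel and Clps, the intestinal regulators Cdx1 and Cdx2 and the ovarian genes Fshr and Cyp19a1 were at 0 in all 12 acid libraries. Other members of those lists were present. Exocrine pancreas genes summed to 1.22 to 11.5 TPM with butyrate and 0.45 to 36.8 TPM with propionate. Ovary genes summed to 3.24 to 97.5 TPM and 2.43 to 213 TPM, and intestinal genes to 4.30 to 8.74 TPM and 2.83 to 8.87 TPM. The mean log2(TPM + 1) of the tested pancreas and ovary genes was highest in the Wt1-high libraries. In the 12 acid libraries alone, the first principal component held 74.2% of the variance of log2(TPM + 1) and the second 4.66%. The Wt1-high libraries lay at 65.1, 125 and 105 on the first component and the other 9 between -63.5 and 28.8. Libraries of both acids were spread along it, and the treatment accounted for 3.55% of the sum of squares over genes, where 1 of 11 degrees of freedom would carry 9.09%.

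The propionate group was the more variable. The SD of log2(TPM + 1) was larger with propionate than with butyrate for 12662 genes (83.5%), and the median SD per gene was 0.33 with butyrate, 0.53 with propionate and 0.40 in control. Of its 6 libraries, 2 were Wt1-high, against 1 of 6 with butyrate. Where a list median, or a gene described at length, moved by much without these 3 libraries, both values are given, and what part tissue make-up had was not tested.

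Butyrate against propionate asked where the 2 related acids differ. Of 15163 genes with at least 1 TPM in at least 6 libraries, 0 were higher and 0 lower with butyrate at an adjusted p under 0.05 (0% called in limma, with Benjamini-Hochberg adjustment over all genes), and the smallest adjusted p was 1. Before adjustment, 25 genes (0.165%) were higher and 82 (0.541%) lower at a p under 0.05, 0.706% of those tested. Leaving out the Wt1-high libraries made the split 81 higher and 41 lower, and under median-of-ratios scaling 91 and 133. The median log2 fold change over all genes was -0.093, with 4506 genes above 0 and 10656 below. The missing calls do not show that the acids act alike. The 95% interval of the difference lay within 2-fold either way for 11718 genes (77.3%), with a median half-width of 0.55 on the log2 scale, so for the remaining genes a difference of 2-fold is inside the interval. In 11 genes (0.0725%) the butyrate and propionate libraries did not overlap.

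The same 0 calls were found for single transcripts. Of 32725 transcripts tested, 0 passed in limma (smallest adjusted p of 1), and before adjustment 199 were higher with butyrate and 289 lower at a p under 0.05.

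The 16 genes of smallest unadjusted p are described here, and none of them passed (adjusted p of 1 in limma's test for each). In 12 of them the butyrate mean was the lower. Among them are enzymes of 1-carbon metabolism and factors of transcription and translation. In all of these 12 except Mtrr, the propionate median lay closer to the control median than to the butyrate median. These genes were picked by this comparison, so their values describe it and support nothing further.

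Cdk5rap1, which methylthiolates mitochondrial tRNAs, had 4.77 to 5.83 TPM (median 5.01) with butyrate, 5.82 to 8.92 TPM (median 7.23) with propionate and 6.45 to 7.95 TPM (median 7.01) in control. The butyrate value was the higher in 1 of 36 pairs of a butyrate and a propionate library. The log2 fold change was -0.41 (95% interval -0.64 to -0.19), the smallest unadjusted p of the comparison in genes of this abundance. Against control it was at -0.42 with butyrate and at -0.001 with propionate, 2 values that share the control libraries. Without the Wt1-high libraries, butyrate against propionate was at -0.36 (-0.62 to -0.10).

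Mtrr and Shmt1 act in the folate and methionine cycles. Mtrr, methionine synthase reductase, reactivates the vitamin B12 of methionine synthase. It had 4.90 to 7.08 TPM (median 6.45) with butyrate, 7.11 to 9.0 TPM (median 8.13) with propionate and 7.45 to 10.9 TPM (median 10.1) in control. The butyrate libraries were all below the propionate ones, at a log2 fold change of -0.32 (-0.56 to -0.076), and at -0.29 (-0.57 to -0.002) without the Wt1-high libraries. Shmt1, cytosolic serine hydroxymethyltransferase, had 3.74 to 5.42 TPM (median 4.33) with butyrate, 4.83 to 8.47 TPM (median 6.41) with propionate and 5.17 to 11.4 TPM (median 6.33) in control. The butyrate value was the higher in 3 of 36 pairs, and the log2 fold change was -0.45 (-0.80 to -0.11), or -0.40 (-0.82 to 0.022) without the Wt1-high libraries.

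Selenbp1, a methanethiol oxidase, had 27.8 to 38.2 TPM (median 32.0) with butyrate, 32.8 to 57.9 TPM (median 42.8) with propionate and 36.1 to 70.1 TPM (median 47.2) in control. The difference was -0.41 (-0.72 to -0.099) on the log2 scale, and -0.22 (-0.55 to 0.12) without the Wt1-high libraries.

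Among regulators of gene expression, Thap11, a transcription regulator of embryonic stem cells, had 8.64 to 11.3 TPM (median 9.80) with butyrate, 10.6 to 15.7 TPM (median 11.9) with propionate and 11.9 to 14.3 TPM (median 13.8) in control. Med24, a subunit of the Mediator complex, had 13.5 to 20.2 TPM (median 17.6) with butyrate, 18.6 to 29.4 TPM (median 22.7) with propionate and 20.2 to 32.5 TPM (median 24.8) in control. Eif2b5, the catalytic subunit of the translation factor eIF2B, had 24.4 to 27.9 TPM (median 25.9) with butyrate, 27.8 to 36.01 TPM (median 31.2) with propionate and 30.2 to 40.6 TPM (median 32.8) in control. The butyrate value was the higher in 2, 3 and 1 of 36 pairs of these genes. The log2 fold changes were -0.32 (-0.54 to -0.10) for Thap11, -0.38 (-0.66 to -0.10) for Med24 and -0.25 (-0.46 to -0.049) for Eif2b5. Snrnp25, a protein of the minor spliceosome, was at -0.34 (-0.62 to -0.064), Tspyl1 at -0.24 (-0.43 to -0.039) and A430005L14Rik at -0.28 (-0.51 to -0.057). Without the Wt1-high libraries the intervals of Thap11, Snrnp25, Tspyl1 and A430005L14Rik included 0, and those of Med24 and Eif2b5 did not.

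The gene whose butyrate libraries all lay above the propionate ones was Gm14326, with 14.6 to 19.0 TPM (median 16.5) with butyrate, 8.0 to 14.6 TPM (median 13.4) with propionate and 8.07 to 13.9 TPM (median 12.9) in control. The difference was 0.39 (0.099 to 0.69), and 0.41 (0.053 to 0.77) without the Wt1-high libraries. Npl, which splits the sialic acid N-acetylneuraminate, had 3.21 to 6.98 TPM (median 5.06) with butyrate, 2.67 to 3.68 TPM (median 3.16) with propionate and 2.87 to 6.37 TPM (median 3.56) in control. The butyrate value was the higher in 33 of 36 pairs, at a log2 fold change of 0.49 (0.082 to 0.91). The other 4 of the 16 are transcripts without an assigned role or pseudogenes, whose reads may be shared with near copies: Gm49369 at 0.91 (0.28 to 1.54), Erhrt-ps at 1.57 (0.40 to 2.73), Gm28266 at -0.66 (-1.17 to -0.15) and Rpl27-ps3, a ribosomal protein pseudogene, at -1.24 (-2.26 to -0.22). All 16 kept their sign without the Wt1-high libraries.

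**Figure D2:**
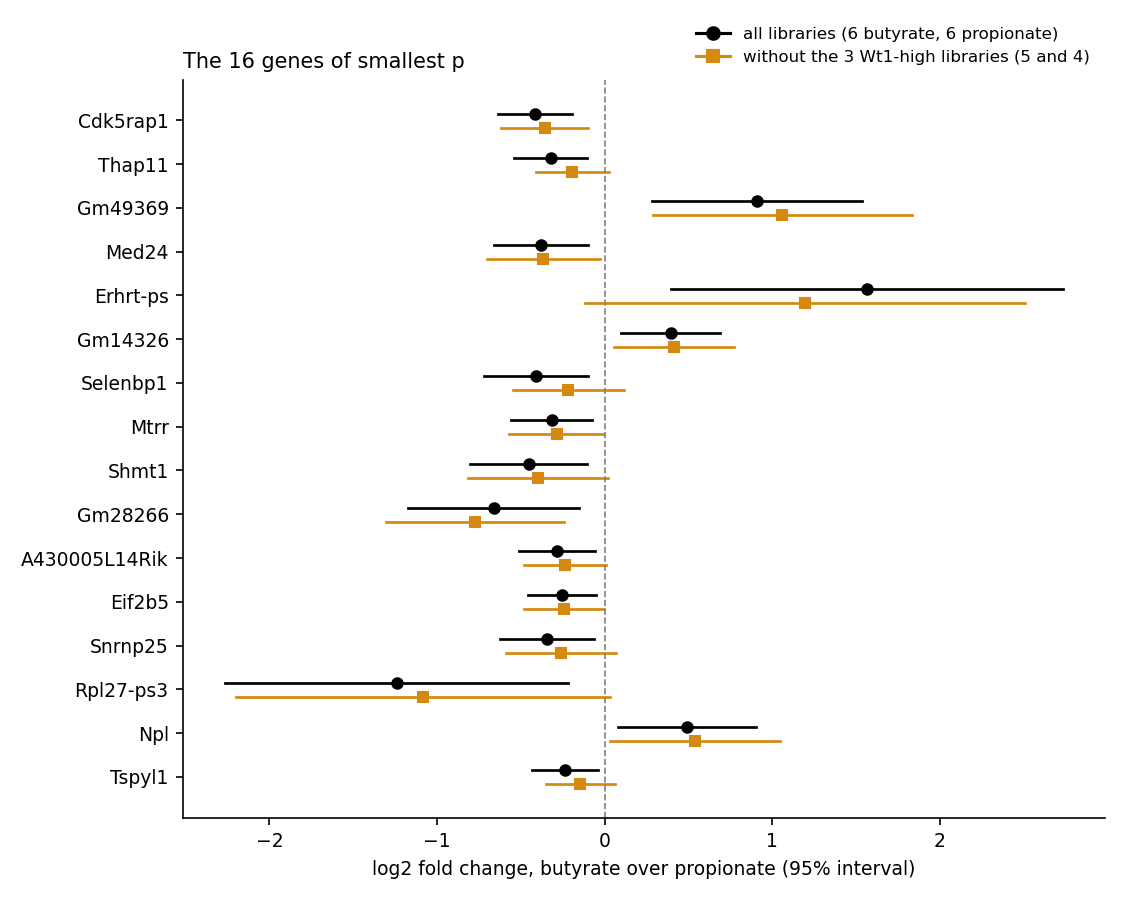
Log2 fold change of butyrate over propionate with its 95% interval for the 16 genes of smallest unadjusted p, from all 12 acid libraries (black circles) and without the 3 Wt1-high libraries (orange squares, 5 butyrate and 4 propionate). None passed (adjusted p of 1), and every estimate keeps its sign without the 3 libraries.

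The genes that handle the acids gave no call. Of 5 receptors for short-chain fatty acids and related metabolites, 4 were tested, at less than 4 TPM in every acid library. Ffar2, a receptor for both acids on leukocytes and fat cells, had 0.24 to 1.39 TPM (median 0.97) with butyrate, 0.37 to 1.12 TPM (median 0.64) with propionate and 0.37 to 1.24 TPM (median 0.64) in control. The difference between the acids was 0.13 on the log2 scale, with an interval of -0.62 to 0.89. Hcar2, the niacin receptor that also senses butyrate, had 0.88 to 2.25 TPM (median 1.03) with butyrate, 0.82 to 1.78 TPM (median 1.05) with propionate and 0.64 to 1.15 TPM (median 0.89) in control, at 0.042 (-0.55 to 0.64). The lactate receptor Hcar1 was at 0.33 (-0.61 to 1.26) and Or51e2, an olfactory receptor that responds to propionate, at 0.15 (-0.25 to 0.54), or -0.018 without the Wt1-high libraries. Ffar3, the propionate receptor of nerve and endocrine cells, was listed at 0 in all 12 acid libraries and at no more than 0.07 TPM in control. The ranges of both acids overlapped for every receptor.

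Of 8 carriers and their chaperones, 5 were tested, with a median log2 fold change of 0.12, or -0.11 without the Wt1-high libraries. Slc16a1, the proton-coupled carrier MCT1, had 10.8, 12.9, 11.8, 11.3, 11.2 and 15.7 TPM in butyrate replicates 1 to 6, 9.45, 19.9, 20.9, 17.96, 12.3 and 12.6 TPM in propionate replicates 1 to 6 and 16.97 to 26.9 TPM (median 21.6) in control. Butyrate libraries were all below control, and propionate libraries reached into the control range. The log2 fold change of butyrate over propionate was -0.27, with an interval of -0.70 to 0.15. It was -0.11 (-0.60 to 0.38) without the Wt1-high libraries. Bsg, basigin, the chaperone that takes MCT1 to the cell surface, had 373 to 443 TPM (median 399) with butyrate, 418 to 591 TPM (median 459) with propionate and 472 to 640 TPM (median 533) in control, at -0.23 (-0.50 to 0.047). Below the filter were Slc16a8, Slc5a8 and Slc5a12, named after their values were seen, and the last, a sodium-coupled carrier, was listed at 0 in all 12 acid libraries and at no more than 0.02 TPM in control.

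All 13 genes of the route that turns propionate into succinyl-CoA were tested, 2 above and 11 below 0, with a median of -0.075 that turned to 0.003 under median-of-ratios scaling and to 0.058 under quantile normalization. Pcca, which carries the biotin of propionyl-CoA carboxylase, had 15.3 to 18.9 TPM (median 16.6) with butyrate, 14.9 to 22.5 TPM (median 19.3) with propionate and 17.3 to 24.4 TPM (median 21.4) in control. The acids differed by -0.13 (-0.51 to 0.25). Mmab, which makes the adenosyl form of vitamin B12 for methylmalonyl-CoA mutase, was at -0.20 (-0.45 to 0.051), and Suclg2, a subunit of the GTP-forming succinyl-CoA ligase, at -0.28 (-0.66 to 0.10), or -0.063 without the Wt1-high libraries. For 11 of the 13 the interval lay within 2-fold either way.

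Of 13 genes that activate and oxidise butyrate, 9 were tested, 2 above and 7 below 0, with a median of -0.14, or 0.012 under quantile normalization. Acads, short-chain acyl-CoA dehydrogenase, had 30.4 to 36.4 TPM (median 32.4) with butyrate, 31.2 to 56.3 TPM (median 35.1) with propionate and 34.6 to 43.5 TPM (median 40.2) in control. The acids differed by -0.18 (-0.47 to 0.098). The next enzymes of the route were close to it, with Echs1, enoyl-CoA hydratase, at -0.22 (-0.50 to 0.057) and Hadh, hydroxyacyl-CoA dehydrogenase, at -0.21 (-0.45 to 0.033). For 8 of the 9 the interval lay within 2-fold. The 4 below the filter, named after their values were seen, were the acyl-CoA synthetase family members Acsm1, Acsm2, Acsm4 and Acsm5. Acsm3 of the same family was tested, and was at 0.48 (-0.76 to 1.71) without the Wt1-high libraries. With all libraries the highest estimate of the list was 0.69.

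**Figure D3:**
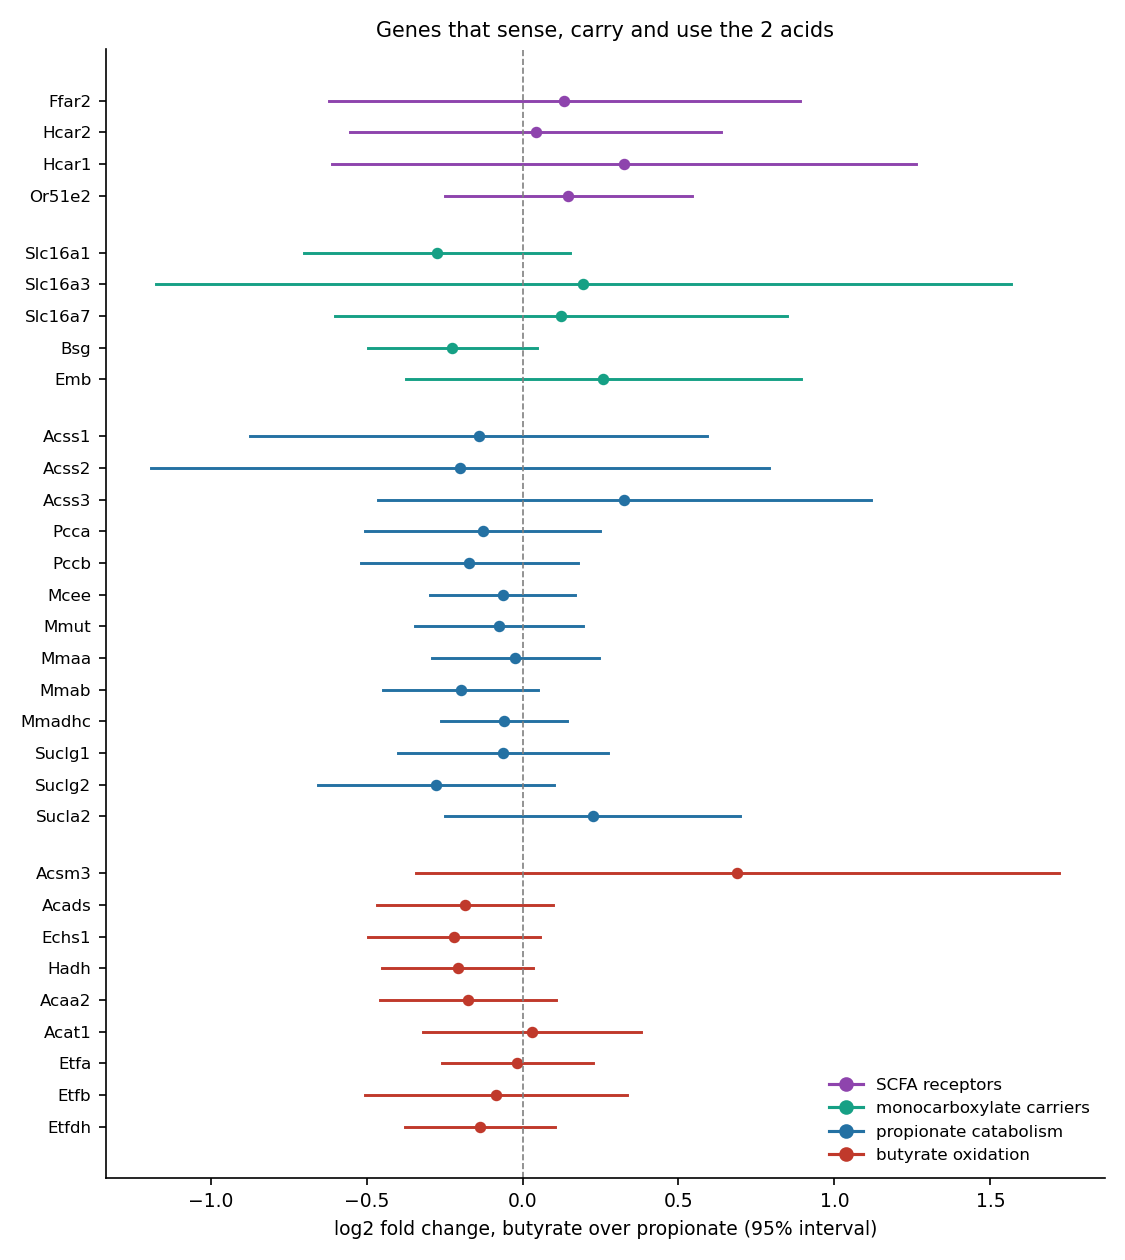
Log2 fold change of butyrate over propionate with its 95% interval for the tested receptors (4), carriers (5), propionate catabolism genes (13) and butyrate oxidation genes (9), coloured by role. Every interval includes 0, and those of the abundant mitochondrial enzymes are narrower than those of the receptors.

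The targets of deacetylase inhibition gave no call either. All 11 zinc-dependent histone deacetylases were tested and 0 of 11 lay above 0, with a median of -0.17 that became 0.032 without the Wt1-high libraries. Hdac1, a nuclear class I enzyme, had 13.1 to 37.0 TPM (median 20.1) with butyrate, 12.9 to 62.5 TPM (median 20.5) with propionate and 16.4 to 66.6 TPM (median 47.0) in control. The highest value of each acid was in a Wt1-high library, and the log2 fold change was -0.25 (-1.10 to 0.60), or 0.16 (-0.65 to 0.97) without those libraries. Hdac3, the enzyme of the NCoR and SMRT corepressors, was at -0.28 (-0.72 to 0.16) and Hdac5, a class IIa enzyme, at -0.17 (-0.45 to 0.11), or at -0.090 and -0.094 without those libraries. The 9 histone acetyltransferases, the opposing enzymes, all lay below 0 as well, with a median of -0.18, or 0.051 without those libraries.

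Of 12 genes that deacetylase inhibitors induce in cultured cells, 12 were tested, 3 above and 9 below 0, with a median of -0.15, or 0.057 without the Wt1-high libraries. Cdkn1a, which encodes the cell cycle inhibitor p21, had 23.4 to 48.3 TPM (median 32.2) with butyrate, 25.2 to 50.9 TPM (median 33.8) with propionate and 38.5 to 51.6 TPM (median 45.0) in control, at -0.034 (-0.41 to 0.34). H1f0, the linker histone H1.0, was at -0.24 (-0.85 to 0.37) and Gadd45a, a stress gene, at -0.33 (-1.01 to 0.35), or at 0.082 and 0.032 without those libraries. Mt2, a metallothionein, was the member of smallest p on the higher side. It had 16.3 to 114 TPM (median 38.4) with butyrate, 10.6 to 35.6 TPM (median 21.1) with propionate and 17.7 to 93.1 TPM (median 39.9) in control, and its interval was wide (0.88, -0.19 to 1.94).

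What the acids share was measured as the mean of the butyrate and propionate groups minus control. At an adjusted p under 0.05, 0 genes were higher and 0 lower in limma (0% called), with a smallest adjusted p of 0.110. Before adjustment, 162 (1.07%) were higher and 5647 (37.2%) lower at a p under 0.05, 38.3% of those tested. That one-sided split depended on scaling, with 1415 higher and 2572 lower under median-of-ratios scaling and 1673 and 2250 under quantile normalization. The median log2 fold change over all genes was -0.34, and it became -0.009 under median-of-ratios scaling and 0.039 under quantile normalization. Changes against control are therefore read relative to that shift. Each acid alone also gave 0 calls: before adjustment, butyrate against control had 181 genes (1.19%) higher and 5325 (35.1%) lower, 36.3% in all, and propionate against control had 66 (0.435%) higher and 1385 (9.13%) lower, 9.57% in all. Under median-of-ratios scaling the splits were 1328 higher and 2353 lower for butyrate and 491 and 783 for propionate. Those comparisons share the control libraries. Controls are rich in Wt1 and Mki67, as given above, and the part of tissue make-up in these values was not tested. Without the 3 Wt1-high acid libraries, 8693 genes (57.3%) passed for the mean of both acids, but 5 of the 6 controls are then the pieces with high Wt1.

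Il15, a cytokine that maintains cytotoxic T cells and natural killer cells, was the only gene above control among those of smallest p described here. It had 9.88 to 16.9 TPM (median 14.5) with butyrate, 11.6 to 18.2 TPM (median 15.1) with propionate and 5.33 to 12.5 TPM (median 8.46) in control. Butyrate libraries were the higher in 34 of 36 pairs with control and propionate libraries in 33 of 36. The mean of both acids was at 0.70 ± 0.16 (SE) on the log2 scale over control (adjusted p = 0.110 in limma), and the acids differed by -0.073 (-0.46 to 0.32). Il15 stood above control under either scaling, at 1.06 and 1.10.

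The other 8 described here lay below control with both acids, each at an adjusted p of 0.110 in limma. Vps37c, a subunit of the ESCRT-I sorting complex, had 9.99 to 15.98 TPM (median 12.3) with butyrate, 9.63 to 24.2 TPM (median 14.97) with propionate and 17.5 to 30.4 TPM (median 25.8) in control. Its mean over both acids was at -0.79 ± 0.18 (SE), and the acids differed by -0.26 (-0.68 to 0.17). Jun, a subunit of the AP-1 transcription factor, had 20.7 to 39.2 TPM (median 23.1) with butyrate, 20.7 to 34.1 TPM (median 27.9) with propionate and 31.6 to 70.6 TPM (median 44.0) in control, at -0.77 ± 0.18, with -0.13 (-0.57 to 0.31) between the acids. Pdlim1, which binds alpha-actinin, was at -0.66 ± 0.15, with 49.8 to 81.3 TPM (median 58.7) with butyrate, 46.4 to 87.4 TPM (median 59.8) with propionate and 85.03 to 115 TPM (median 99.98) in control. The acids overlapped in all 3 genes. For Vps37c, 0 of 6 butyrate and 3 of 6 propionate libraries exceeded the lowest control, for Jun 1 and 2, and for Pdlim1 0 and 1.

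In the remaining 5 the difference between the acids was also smaller than that against control. Picking genes for small p against control favours that order. Fbxl15, an F-box protein, was at -0.78 ± 0.19 against control and -0.20 (-0.66 to 0.25) between the acids, Btbd2 at -0.55 ± 0.14 and -0.28 (-0.61 to 0.041), and Hsf1, the heat shock transcription factor, at -0.52 ± 0.13 and -0.20 (-0.52 to 0.11). Agpat5, an acyltransferase of phospholipid synthesis, had 7.48 to 8.46 TPM with butyrate, 7.34 to 8.92 TPM with propionate and 9.95 to 11.3 TPM in control, so that 0 of 36 pairs with control were higher for either acid. It was at -0.33 ± 0.082 and Fam104a at -0.36 ± 0.090, both close to the shift of all genes, and both turned to the other side of 0 under median-of-ratios scaling (0.037 and 0.022) and under quantile normalization (0.12 and 0.060). The other 6 genes below control stayed below it under both scalings. All 9 passed without the 3 Wt1-high acid libraries (adjusted p = 0.00265 to 0.00319 in limma), without propionate replicate 3 alone (adjusted p = 0.0340) and without control replicate 3 alone (adjusted p = 0.0253), with the sign they had before. In those fits 57.3%, 37.5% and 40.1% of all genes passed, and the 9 were picked for small p in this comparison, so their passing says nothing particular about them.

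**Figure D4:**
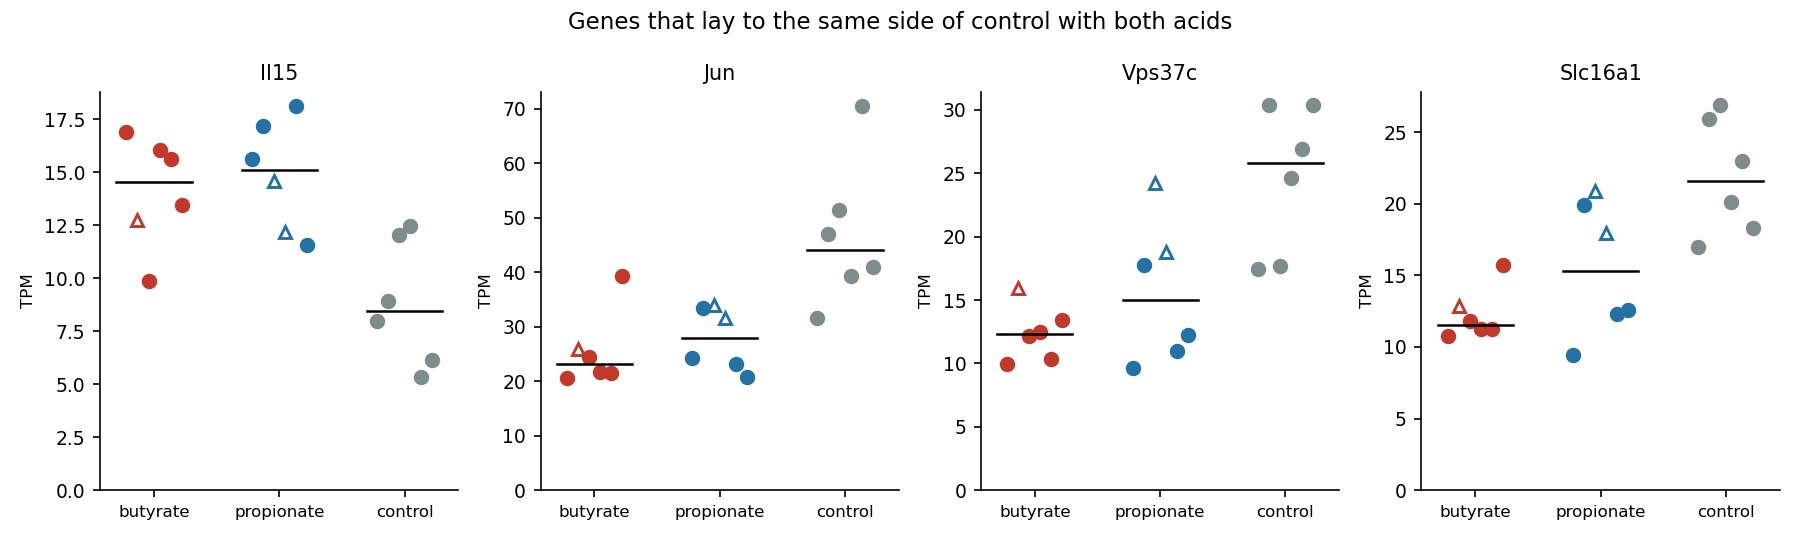
TPM of Il15, Jun, Vps37c and the carrier gene Slc16a1 in butyrate, propionate and control, 1 point per library (6 each), with the median as a black line and open triangles for the 3 Wt1-high acid libraries. Il15 medians are 14.5, 15.1 and 8.46 TPM, and the Slc16a1 medians are 11.5, 15.3 and 21.6 TPM.

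Gene groups were described by the number of tested members on each side of 0 and by their median, beside a median of -0.093 over all genes. In the direct comparison 0 members of any of 39 lists were called. The medians were below 0 for 29 lists and above for 10. Without the Wt1-high libraries they were below 0 for 11 and above for 28, with 22 lists on the other side of 0, while the median of all genes went to 0.097. In that fit the butyrate libraries have the higher median of Wt1, so it is not a comparison of like tissue either.

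Proliferation genes were among the lists that switched side. Of 16 DNA replication genes 0 lay above 0, at a median of -0.31, but 16 of 16 did without the Wt1-high libraries, at 0.35. The members of smallest p were Gins2, of the replicative helicase, and Cdt1, which loads it, at -0.31 (-1.01 to 0.40) and -0.39 (-1.41 to 0.64), or 0.12 and 0.10 without those libraries. The 15 mitosis genes had a median of -0.084, of 0.032 under median-of-ratios scaling and of 0.66 without the Wt1-high libraries. The mitotic kinases Bub1 and Aurka were at -0.29 (-1.22 to 0.65) and -0.13 (-0.71 to 0.46), and Mki67 at -0.084 (-1.56 to 1.39). Without those libraries Bub1 and Aurka were at 0.14 and 0.080, and Mki67 at 0.67 (-0.67 to 2.01), in a range of 0.30 to 4.52 TPM with butyrate and 0.22 to 1.21 TPM with propionate. Against control, the mean of both acids had 16 of 16 DNA replication genes and 15 of 15 mitosis genes below 0, at medians of -1.27 and -1.61. All of them had an unadjusted p under 0.05, beside 37.2% of all genes on that side, and 0 passed. Under median-of-ratios scaling the medians were -0.90 and -1.36, and in the fit with tissue covariates -0.19 and -0.30.

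Interferon gamma response, antigen presentation and T cell genes had the lowest medians of the direct comparison. B cell and plasma cell (-0.28), regulatory T and checkpoint (-0.26) and cytotoxic effector genes (-0.21) were on the same side. Neutrophil (-0.092) and inflammatory cytokine genes (-0.084) were near the -0.093 of all genes, with macrophage genes at -0.013 and type I interferon genes at 0.026. All 17 interferon gamma response genes lay below 0, at a median of -0.51, which was -0.43 under either scaling. Gbp5, an interferon-induced GTPase, had 4.72 to 7.26 TPM (median 5.25) with butyrate, 4.27 to 16.4 TPM (median 7.72) with propionate and 4.03 to 9.97 TPM (median 6.82) in control. It was at -0.51 (-1.18 to 0.16). Irgm2, an immunity-related GTPase, was at -0.68 (-1.57 to 0.22). In both genes the 2 highest values of the 12 acid libraries were those of propionate replicates 3 and 4. Without the Wt1-high libraries the list's median was 0.083, with Gbp5 at -0.066 and Irgm2 at -0.21. In the fit with tissue covariates the interferon gamma median was -0.44. Those covariates are built from other tissue lists, ovary and exocrine pancreas among them, and hold no mesothelium or carcinoma genes. They were computed over all 24 libraries. Replicate 5 of both acids together stands apart there, with a mean log2(TPM + 1) of skeletal muscle genes of 1.28, against at least 9.75 in acid and control libraries. The median of the mesothelium list itself went from -0.25 to -0.027 in that fit.

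Antigen presentation and T cell genes were on the same side. All 12 class I and class II presentation genes lay below 0, at -0.43, at 0.13 without the Wt1-high libraries and at -0.31 with tissue covariates. H2-D1, a classical class I chain, had 191 to 398 TPM (median 290.1) with butyrate, 206 to 696 TPM (median 289) with propionate and 222 to 465 TPM (median 415) in control, at -0.34 (-1.08 to 0.40). Tap2, a subunit of the peptide transporter, was at -0.40 (-1.22 to 0.41). Without those libraries H2-D1 was at 0.073 and Tap2 at 0.078. All 15 T cell genes lay below 0, at -0.41, at 0.028 without the Wt1-high libraries and at -0.37 with tissue covariates. Their summed level was low in every group, with 10.6 to 32.0 TPM for butyrate, 13.5 to 80.2 TPM for propionate and 9.69 to 39.3 TPM for control. Cd8a, of cytotoxic T cells, had 0.03 to 0.52 TPM (median 0.21) with butyrate, 0.11 to 1.91 TPM (median 0.38) with propionate and 0.11 to 1.12 TPM (median 0.70) in control, at -0.42 (-1.75 to 0.91). Cd2, an adhesion receptor of T and natural killer cells, was at -0.70 (-1.75 to 0.35) and the CD3 chain gene Cd3e at -0.64 (-1.87 to 0.59). Cd8a was at -0.091, Cd2 at -0.33 and Cd3e at -0.29 without the Wt1-high libraries. Foxp3, of regulatory T cells, was below the filter, with at most 0.61 TPM with butyrate, 1.31 TPM with propionate and 0.78 TPM in control.

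Macrophage genes, 12 of 12 tested, had a median of -0.013, of 0.068 under median-of-ratios scaling and of 0.42 without the Wt1-high libraries. Mrc1, the mannose receptor of macrophages, had 17.6 to 42.2 TPM (median 31.8) with butyrate, 16.8 to 37.1 TPM (median 22.9) with propionate and 23.6 to 38.2 TPM (median 26.5) in control. The acids differed by 0.30 (-0.15 to 0.74), and by 0.56 (0.098 to 1.02, adjusted p = 0.998 in limma) without those libraries. Cd163, the haemoglobin scavenger receptor, was at 0.21 (-0.35 to 0.77), or 0.48 without them. The 15 type I interferon genes had a median of 0.026, and of 0.30 without the Wt1-high libraries.

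**Figure D5:**
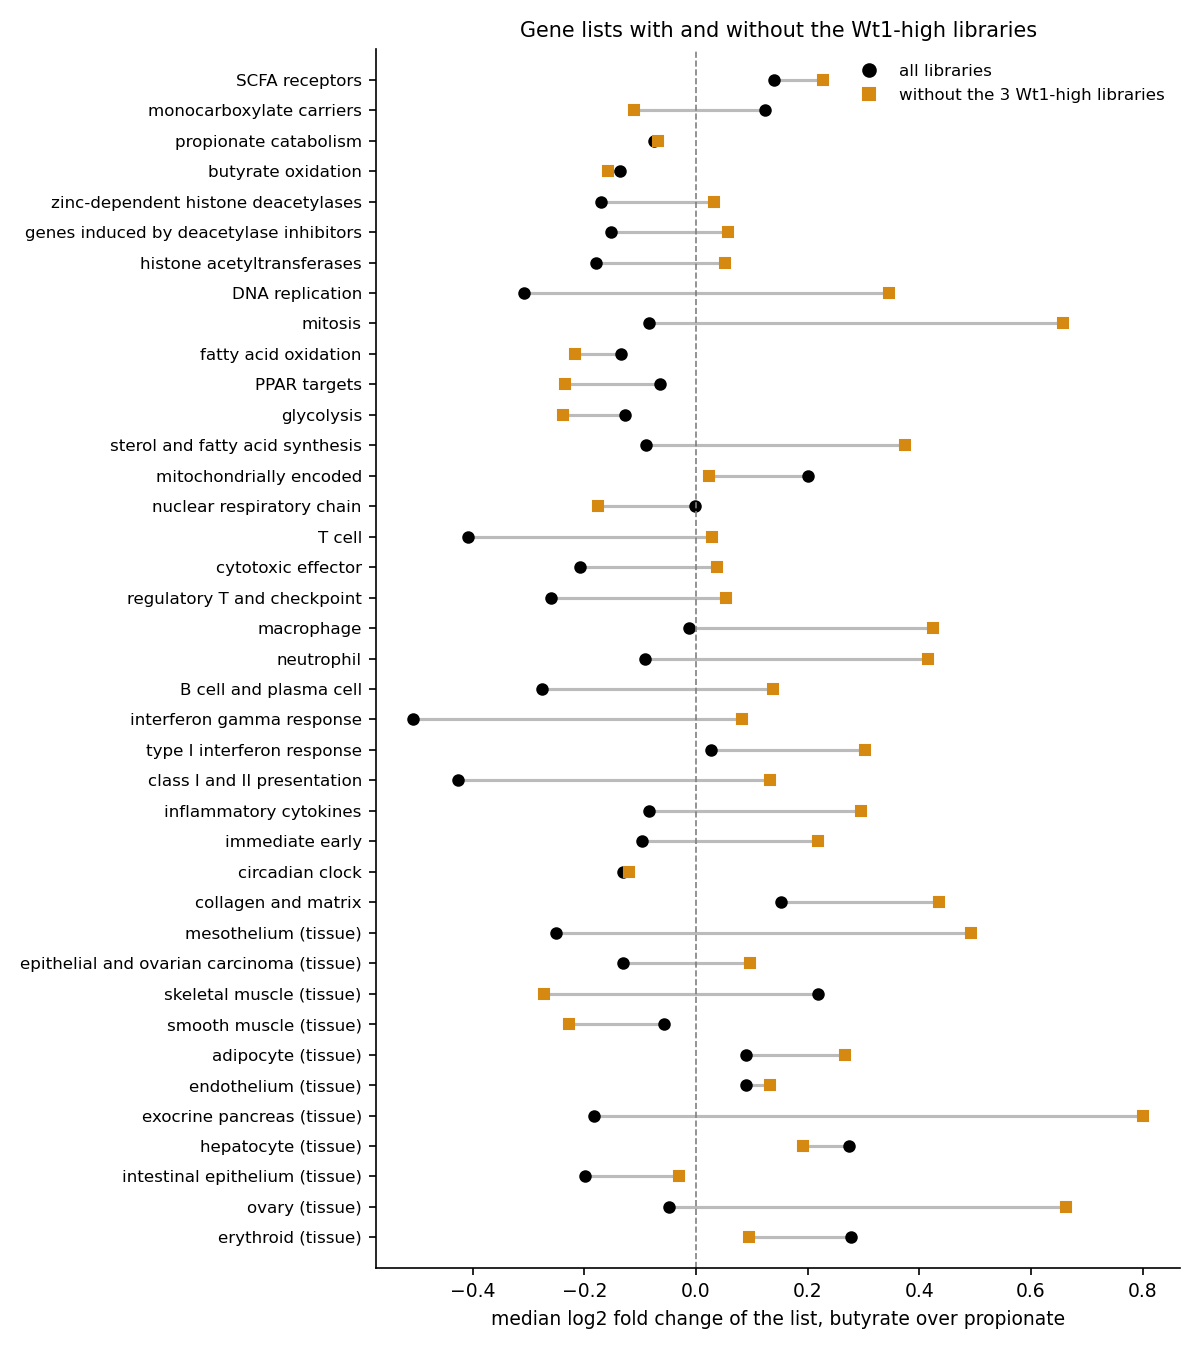
Median log2 fold change of butyrate over propionate for each of 39 gene lists, from all 12 acid libraries (black circles) and without the 3 Wt1-high libraries (orange squares), joined by a grey line. Of the 39 medians, 22 lie on the other side of 0 without them, among them DNA replication (-0.31 and 0.35), interferon gamma response (-0.51 and 0.083) and skeletal muscle (0.22 and -0.27).

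In energy metabolism, all 13 mitochondrially encoded genes lay above 0, at a median of 0.20, of 0.28 under median-of-ratios scaling, of 0.067 under quantile normalization and of 0.023 without the Wt1-high libraries. The share of TPM from these transcripts was 23.2 ± 2.47% (SD, n = 6) with butyrate, 19.99 ± 4.46% with propionate and 16.6 ± 3.72% in control. The butyrate share was the higher in 26 of 36 pairs with propionate, and the difference did not pass (two-sided exact permutation p = 0.173, adjusted p = 0.583 over 4 library measures, where the arrangements of 6 and 6 libraries allow a smallest p of 0.00216). The other 3 measures were the share of TPM of the 50 most abundant genes (exact p = 0.407), the number of genes with at least 1 TPM (exact p = 0.946) and the share of TPM without a gene name (exact p = 0.437). Skeletal muscle genes lay on the same side, with 16 of 16 above 0 at 0.22 and 0 of 16 above 0 at -0.27 without the Wt1-high libraries.

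Glycolysis genes, 14 of 14 tested, had a median of -0.13, or -0.24 without the Wt1-high libraries. Gpi1, glucose-6-phosphate isomerase, had 238 to 265 TPM (median 256) with butyrate, 258 to 384 TPM (median 293) with propionate and 271 to 351 TPM (median 323) in control. The acids differed by -0.25 (-0.47 to -0.023, adjusted p of 1 in limma), and -0.32 (-0.57 to -0.067) without the Wt1-high libraries. Eno1, enolase, was at -0.47 (-1.28 to 0.34), and at 0.017 (-0.75 to 0.78) without them. The 14 fatty acid oxidation genes had a median of -0.13, of 0.005 under quantile normalization and of -0.22 without the Wt1-high libraries.

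Clock, immediate early and matrix genes gave no call. Npas2 and Bmal1, partners of the clock's activating complex, were the clock genes of smallest p, at 0.38 (-0.002 to 0.76) and 0.28 (-0.080 to 0.64), or 0.21 and 0.13 without the Wt1-high libraries, while the list of 15 had a median of -0.13. Npas2 had 1.69 to 3.92 TPM (median 1.88) with butyrate, 0.96 to 1.79 TPM (median 1.57) with propionate and 1.59 to 3.24 TPM (median 2.38) in control. Nr4a1, an orphan nuclear receptor of the immediate early list, had 12.5 to 19.3 TPM (median 16.2) with butyrate, 17.8 to 33.8 TPM (median 22.96) with propionate and 13.2 to 46.7 TPM (median 25.6) in control. It was at -0.52 (-1.10 to 0.048), and at -0.75 (-1.43 to -0.065, adjusted p = 0.998 in limma) without the Wt1-high libraries. Collagen and matrix genes, 11 of 13 above 0, had a median of 0.15, and of 0.44 without those libraries. Col3a1, fibrillar collagen of soft tissue, was at 0.38 (-0.34 to 1.10) and Lum, the proteoglycan lumican, at 0.37 (-0.23 to 0.97).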

How the data were processed

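Per the labels' protocols, TRIzol-extracted polyadenylated RNA was made into stranded libraries. Tools in the submitters' processing notes are fastp, HISAT2 and StringTie, with the mouse build mm39. Not given in the sources used here are versions, settings and annotation. The authors deposited TPM per transcript, 149132 rows, and depth is unknown since TPM keeps none. TPM was summed by gene name (56422 names), leaving out 1001 rows without a name. The 15163 genes that reached 1 TPM in 6 or more libraries were analysed as log2(TPM + 1) in limma 3.58.1 (R 4.3.3), all 24 libraries in one fit, with moderation by trend and robust settings, two-sided tests, Benjamini-Hochberg adjustment and a threshold of 0.05. Fold changes understate low genes. The fit was also run on simulated data. Genes varied independently there, unlike in these tissue pieces, so that run does not cover differences of tissue make-up. Whether strand was used in counting is not stated, so antisense partners may share reads.

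The rule for named genes took the 16 genes of smallest p in the direct comparison (none passed) and 10 for the mean of both acids, among genes whose mean log2(TPM + 1) reached 1. It added Ffar2, Hcar2, Slc16a1, Pcca, Acads, Hdac1, Cdkn1a, H1f0, Cd8a, Foxp3, Il15 and Mki67, members of smallest p of described lists, Wt1 and Krt8. Some genes of the lists or picked in this way, and a list that rested on such genes, are not reported here. Members and the 39 lists were chosen with earlier results of these data known. No sequence or coordinates are given, since the reference at hand is of an older build. Alternatives are in the closing section.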

Additional observations from a re-analysis of the deposited data

Results flagged for a closer look

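In 6 of 219 groups of 6 libraries, the highest or lowest library stood far from the other 5, by a gap above Dixon's 95% critical value for the share of the group's range. Chance alone gives about 1 in 20 such groups. Jun was 39.2 TPM in butyrate replicate 6, with 20.7 to 25.9 TPM in the other butyrate libraries. Gm14326 was 8.0 TPM in propionate replicate 2, with 12.1 to 14.6 TPM in the others of that group. Acads was 56.3 TPM in the same library, with 31.2 to 37.9 TPM in the others. Shmt1 was 11.4 TPM in control replicate 2, with 5.17 to 6.40 TPM in the other controls. H2-D1 was 222 TPM in control replicate 3, with 384 to 465 TPM in the others. That control library also had the fewest genes with at least 1 TPM, 13131, with 14319 to 14949 in the other controls.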

How the results depend on the processing

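For butyrate against propionate, 0 genes passed under all 13 alternatives and without each of the 12 acid libraries in turn. The fits nearest to a call were weights per library (smallest adjusted p = 0.071 in limma, 944 higher and 453 lower before adjustment) and a replicate block by library name number (smallest adjusted p = 0.265, 94 and 2757). Same-numbered libraries did not consistently deviate together. Correlations over genes between butyrate and propionate libraries of the same title number ran from -0.605 to 0.737. By library name number they ran from -0.352 to 0.489, and between propionate and control libraries from -0.395 to 0.641. Whether libraries of the same number share a batch was not tested. A replicate block by title number left 0 calls in all 4 comparisons. Transcripts gave 0 calls under each alternative, the leave-one-out fits having been added after seeing the data.

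Against control the counts moved, and the cause was not tested. The mean of both acids gave 11459 genes with weights per library, 6874 with the block by library name number and 8693 without the 3 Wt1-high libraries, and leaving out single libraries gave 0 to 6076, with 5679 without propionate replicate 3 and 6076 without control replicate 3. Butyrate against control gave 10256, 7903 and 6471 under the same 3 settings and 0 to 5654 without single libraries, the highest without control replicate 3. Propionate against control gave 11434 with weights and 7786 without the Wt1-high libraries.

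Among 72 fold changes of named genes, 41 estimates under the alternatives turned to the other sign, and 15 when single libraries were left out. All are butyrate over propionate on the log2 scale unless named otherwise. Under median-of-ratios scaling these were Cdkn1a 0.043 and Mki67 0.032, and against control Fam104a 0.022 and Agpat5 0.037. With a pseudocount of 0.1, Mki67 was 0.083. Under quantile normalization they were mt-Atp8 0.0, Mki67 0.010, Il15 0.052, Cdkn1a 0.12 and Pcca 0.007, and against control Fam104a 0.060 and Agpat5 0.12. With the block by library name number they were Cdkn1a 0.076 and Hcar2 -0.003, and with tissue covariates Mki67 0.087. With weights per library they were Irgm2 0.031, H2-D1 0.16, Gbp5 0.017, Tap2 0.18, Aurka 0.11, Hdac1 0.11, Bub1 0.23, Cdt1 0.12, Gins2 0.024, Gadd45a 0.041, H1f0 0.060, Mki67 0.79, Or51e2 -0.11 and Eno1 0.004. Without the Wt1-high libraries they were H2-D1 0.073, Tap2 0.078, Eno1 0.017, Aurka 0.080, Gins2 0.12, Cdt1 0.10, Gadd45a 0.032, Or51e2 -0.018, Mki67 0.67, H1f0 0.082, Hdac1 0.16 and Bub1 0.14, and the shares of the 50 most abundant genes and of TPM without a name were -1.29 and 0.0152 percentage points. Leaving out single libraries gave ranges of -0.136 to 0.075 for Cdkn1a, -0.383 to 0.381 for Mki67, -0.137 to 0.018 for Il15, -0.254 to 0.024 for Aurka, -0.070 to 0.117 for Hcar2, -0.432 to 0.006 for Hdac1 and -173.7 to 284.7 for the number of genes with at least 1 TPM.

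Depth is unknown, so no counting limit can be set for genes near 0. With 6 libraries a group, the median 95% half-width of 0.55 limits what could be seen.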

Other observations

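Some gene groups that the comparison above leaves out are given here as values, as medians of the log2 fold change of butyrate over propionate. Of 15 sterol and fatty acid synthesis genes, 4 lay above 0 and 11 below, at -0.090, or 0.38 without the Wt1-high libraries and 0.017 under quantile normalization. The 13 targets of the PPAR receptors had a median of -0.064, of -0.23 without those libraries, of 0.017 under median-of-ratios scaling and of 0.015 under quantile normalization. The 17 tested subunits of the nuclear-encoded respiratory chain were divided 8 to 9, at -0.001. Without the Wt1-high libraries 2 lay above 0 and 15 below, at -0.175.

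Of 10 B cell and plasma cell genes, 7 were tested and all 7 lay below 0, at -0.28, or 0.14 without the Wt1-high libraries. Their summed level ran from 81.3 to 931 TPM with butyrate, 72.5 to 2724 TPM with propionate and 125 to 2096 TPM in control. All 9 tested regulatory T and checkpoint genes also lay below 0, at -0.26, or 0.053 without those libraries. Of 12 cytotoxic effector genes only 5 passed the filter, with a summed level of the whole list of 3.87 to 15.6 TPM with butyrate, 3.33 to 33.1 TPM with propionate and 4.34 to 15.3 TPM in control. Neutrophil genes, 7 of 10 tested, had a median of -0.092, and of 0.42 without the Wt1-high libraries. In each of these lists 0 members passed in limma, as for the other lists.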
